A study of Mus musculus with 6 samples.

Results

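The Lin28 genes and the oncofetal RNA-binding and chromatin genes linked to them were followed in mouse embryoid bodies with and without Tnfaip2. The set holds Lin28a, Lin28b, Trim71, Hmga1, Hmga2, Igf2bp1, Igf2bp2 and Igf2bp3, which are developmental timing genes tied to the let-7 microRNAs and were found by gene symbol. All 8 were present among the 52636 genes of the count table, and all 8 passed the filter for expressed genes, which kept 17849 genes.

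The samples are embryoid bodies (EBs), spherical aggregates in which embryonic stem (ES) cells begin to differentiate, made from the mouse ES cell line E14. The ES cells were grown with leukemia inhibitory factor, formed EBs in hanging drops over 3 days, and were then plated for 3 days of differentiation without that factor before RNA was taken. There were 3 samples of WT EBs from the parental line and 3 samples of Tnfaip2-/- EBs. The Tnfaip2-/- line is a single CRISPR-Cas9 clone with a premature stop codon in the second exon, so the effect of the genotype and any other property of this clone cannot be told apart. Each sample is a separate RNA library, and the spread between samples of a genotype does not include the spread between clones.

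LIN28A and LIN28B are RNA-binding proteins of early embryos and stem cells that hold back the maturation of let-7, a microRNA family whose levels rise during differentiation. In the absence of LIN28, mature let-7 accumulates and represses mRNAs that carry its sites in their 3′ UTRs, among them those of Lin28 itself, Trim71, Hmga2 and the Igf2bp family. Most of these genes are active in the embryo, silent in most adult tissues and active again in many tumours, which gave them the name oncofetal.

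The let-7 sequences are shown first because the 8 genes are tied together by them. In the microRNA reference (RefSeq, GRCm38.p6), 11 let-7 and miR-98 genes with a mature sequence all carried the same seed, bases 2 to 8, which pairs with the target mRNA. Below, the seed is in capitals.
mmu-let-7a-5p: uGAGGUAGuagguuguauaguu
mmu-let-7d-5p: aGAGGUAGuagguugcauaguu
mmu-let-7g-5p: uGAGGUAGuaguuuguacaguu
mmu-miR-98-5p: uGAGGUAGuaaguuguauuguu
These 4 differ outside the seed and are encoded on chromosome 13 (let-7a-1 and let-7d), chromosome 9 (let-7g) and the X chromosome (miR-98).

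The zinc knuckles of LIN28 proteins bind the letters GGAG in the loop of let-7 precursors. On the transcribed strand, these letters were found in 8 of the 11 hairpins (72.7%), against 447 of the 1005 hairpins in the reference (44.5%), anywhere in the hairpin. Mirlet7b, Mirlet7c-2 and Mir98 had none. The Mirlet7g hairpin (chr9:106178840-106178927, plus strand) is given as an example, with GGAG in capitals.
Mirlet7g: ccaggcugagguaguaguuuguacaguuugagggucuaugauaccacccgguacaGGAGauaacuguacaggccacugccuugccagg

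The letters CTACCTC, which pair with all 7 bases of the let-7 seed, were searched for on the transcribed strand of the longest annotated 3′ UTR of each gene (GENCODE M21, GRCm38). All 8 genes had at least 1 match, 21 in total. Trim71, Lin28b, Hmga2 and Igf2bp1 had 4 matches each, Lin28a had 2, and Hmga1, Igf2bp2 and Igf2bp3 had 1. In 7 genes, all but Hmga1, at least 1 match was followed by A, a form of site on which microRNAs usually act more strongly. There were 13 such matches, 4 in Trim71 and 3 in Igf2bp1. One site per gene is given with its surroundings, and the match is in capitals.
Lin28a, chr4:134005188-134005211, minus strand: gcacagcctgttgaaCTACCTCat
Lin28b, chr10:45381021-45381044, minus strand: acccgggcgggaagtCTACCTCat
Trim71, chr9:114509046-114509069, minus strand: tttagtatggattttCTACCTCaa
Hmga1, chr17:27563277-27563300, plus strand: tcctctgttcacaaaCTACCTCtg
Hmga2, chr10:120364223-120364246, minus strand: gccgacattcaatttCTACCTCag
Igf2bp1, chr11:95961777-95961800, minus strand: gctgtgcgaagtaaaCTACCTCaa
Igf2bp2, chr16:22059472-22059495, minus strand: acacacaaataaaagCTACCTCag
Igf2bp3, chr6:49086786-49086809, minus strand: tgcatttttactcaaCTACCTCag
A match is a description of the letters and does not show that let-7 acts on the mRNA. In Trim71, 2 matches lie close together at bases 3591 and 3617 of a 3′ UTR of 5512 bases.

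**Figure D1:**
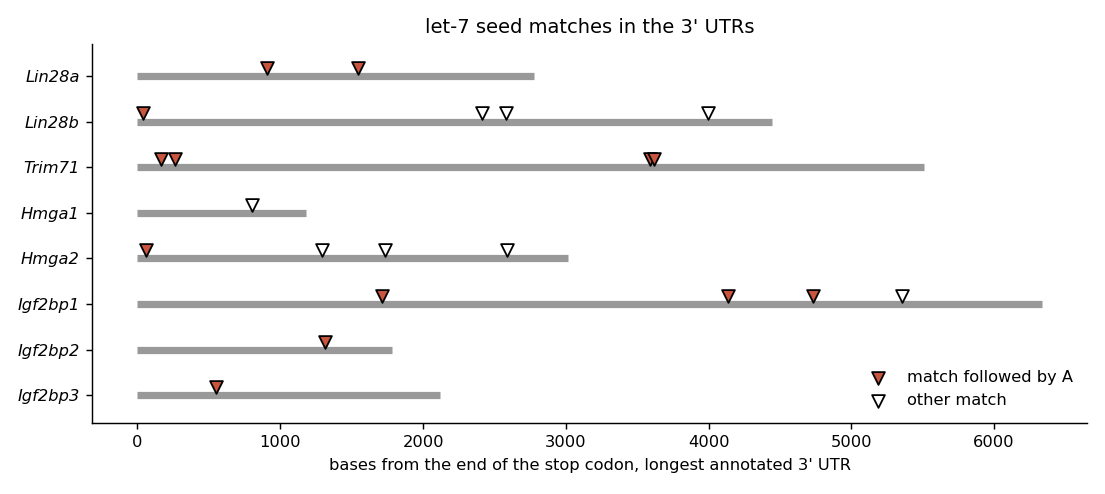
Position of each let-7 seed match (triangles) along the longest annotated 3′ UTR (grey bars) of the 8 genes, in bases from the end of the stop codon. Filled triangles mark the 13 matches followed by A, and the 4 matches of Trim71 are all of this kind.

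The targeted gene was checked first. Tnfaip2 (ENSMUSG00000021281) was covered by 7, 4 and 7 reads in WT EBs, and by 0, 2 and 2 reads in Tnfaip2-/- EBs. Each Tnfaip2-/- sample was below each WT sample, in the direction of the labels, but all values were too low for the expression filter and no fold change is given. The libraries were of like size, from 22489903 to 23804489 counts in WT EBs and from 21765931 to 22480962 in Tnfaip2-/- EBs, and 3 counts correspond to 0.128 to 0.137 CPM (normalised counts per 1000000). All CPM below are scaled by library sizes after TMM normalisation.

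The label of the cells was then compared with markers. The ES cell factor Pou5f1 (Oct4) was abundant in both genotypes, with 759.7 ± 9.63 CPM in WT EBs and 419 ± 5.97 CPM in Tnfaip2-/- EBs (SD, n = 3). Sox2 had 281 ± 2.82 and 329 ± 6.78 CPM, and Nanog 258 ± 8.96 and 309.6 ± 7.38 CPM. All 6 samples, which are labelled as EBs, thus expressed these ES cell genes. No undifferentiated ES cell sample is among them for comparison. Pou5f1 fell while Sox2 and Nanog rose (log2 fold changes of -0.86, 0.23 and 0.26, edgeR with Benjamini-Hochberg adjustment, adjusted p = 1.6e-32, 6.12e-11 and 8.97e-12).

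All 8 genes differed between the genotypes at an adjusted p below 0.05 (edgeR quasi-likelihood test, Benjamini-Hochberg over 17849 genes). Lin28a, Lin28b, Hmga1, Hmga2 and Igf2bp3 were lower in Tnfaip2-/- EBs, and Trim71, Igf2bp1 and Igf2bp2 were higher. Of all tested genes, 67.7% passed the same test, 33.7% as lower and 34.0% as higher, so passing it is common in this comparison. The samples of the genotypes did not overlap for any of the 8 genes, and the same was true of 69.4% of all tested genes. When the test asked for a change beyond 1.5-fold, the 5 lower genes passed and the 3 higher genes did not, where 15.7% of all tested genes passed. Since the RNA comes from whole EBs, fewer cells of a type and less RNA per cell cannot be told apart for any value below.

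**Figure D2:**
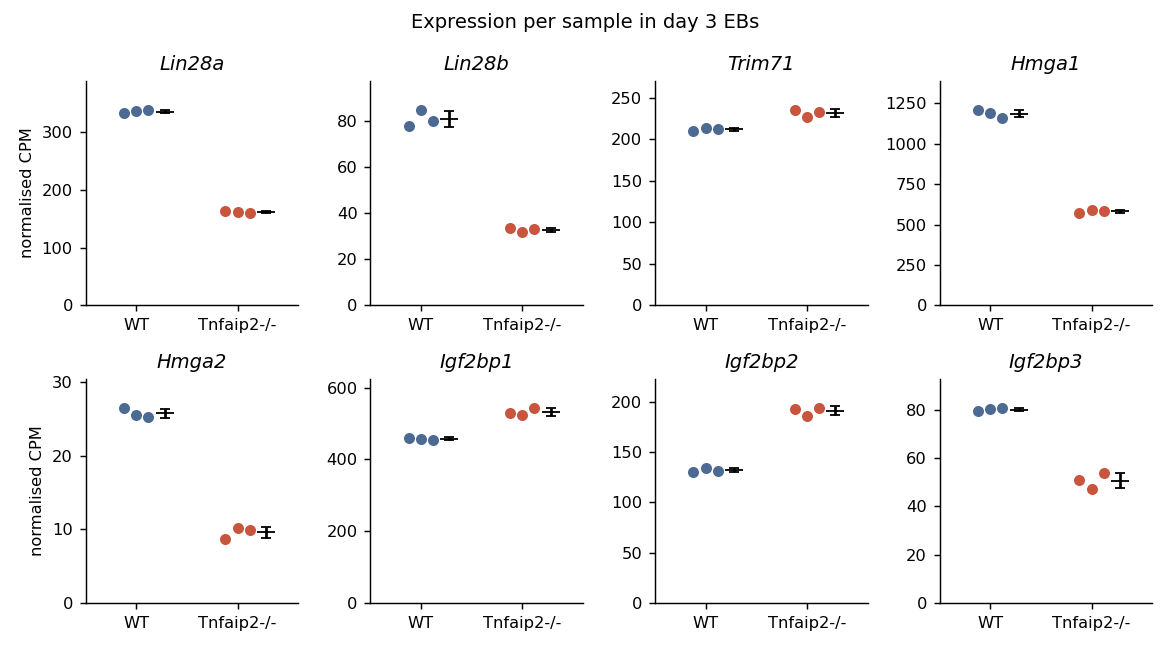
Expression of the 8 genes in normalised CPM (linear axes from 0) in each sample of WT (blue) and Tnfaip2-/- (red) EBs, with mean ± SD beside the points. The samples of the genotypes are separate in every panel, with the largest relative gap for Hmga2 and the smallest for Trim71.

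Lin28a (ENSMUSG00000050966, chr4:134003330-134018841, minus strand) encodes the cytoplasmic LIN28 protein of ES cells, which recruits a terminal uridylyl transferase to the let-7 precursor. It had 333.1, 335.7 and 337.8 CPM in WT EBs, compared with 163.5, 162 and 159.2 CPM in Tnfaip2-/- EBs, from counts between 3530 and 7936. The 3 WT samples were high and almost equal, the 3 Tnfaip2-/- samples were low and almost equal, and the gap was far wider than either spread. At such counts, counting error alone gives a spread of about this size. The spread and the small adjusted p therefore say little about how far separate cultures would differ. The mean was 336 ± 2.33 CPM in WT and 162 ± 2.20 CPM in Tnfaip2-/- EBs (SD, n = 3). This is a 2.08-fold lower level and a log2 fold change of -1.05 (standard error 0.0263, edgeR with Benjamini-Hochberg adjustment, adjusted p = 2.8e-34). Among all tested genes, 4.07% had a log2 fold change as low or lower.

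Lin28b (ENSMUSG00000063804, chr10:45376620-45486395, minus strand) is the paralog that can also act in the nucleus, on the primary let-7 transcripts. Its values were 77.83, 84.5 and 79.85 CPM in WT EBs, compared with 33.36, 31.55 and 32.83 CPM in Tnfaip2-/- EBs. Every Tnfaip2-/- sample was below every WT sample, with the wider spread among the WT EBs. Mean levels were 80.7 ± 3.42 and 32.6 ± 0.930 CPM (SD, n = 3), a 2.48-fold lower level. The log2 fold change was -1.31 (standard error 0.0423, edgeR with Benjamini-Hochberg adjustment, adjusted p = 8.22e-30), and 2.78% of tested genes were as low or lower.

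Scaled by the length of their exons, Lin28a was the main Lin28 gene of both genotypes. Per kb of exon its level was 84.0 CPM in WT and 40.4 CPM in Tnfaip2-/- EBs, against 8.91 and 3.59 CPM for Lin28b. Lin28a thus made up 90.4% ± 0.349 of the sum of both genes in WT EBs and 91.8% ± 0.227 in Tnfaip2-/- EBs (SD, n = 3). The summed level per kb fell from 92.9 ± 0.801 to 44.0 ± 0.572 CPM. Lin28b fell more than Lin28a: the log2 ratio of Lin28a to Lin28b counts was 2.097, 1.990 and 2.080 in WT EBs, compared with 2.29, 2.36 and 2.28 in Tnfaip2-/- EBs. These values do not overlap, and the means differ by 0.25. A two-sided exact permutation test of 3 against 3 samples gave p = 0.1, the smallest it can give, and 0.1 after adjustment over the 5 ratios tested.

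HMGA1 and HMGA2 are small proteins that bind the minor groove of AT-rich DNA and bend chromatin in proliferating embryonic cells, and Hmga2 is a textbook let-7 target. Hmga1 (ENSMUSG00000046711, chr17:27556497-27563674, plus strand) had 1208, 1191 and 1163 CPM in WT EBs, compared with 568.4, 589.5 and 584.9 CPM in Tnfaip2-/- EBs. It was the most abundant of the 8 genes in every sample, and its WT values were all about double those of the Tnfaip2-/- EBs. The level was 2.04-fold lower in Tnfaip2-/- EBs (1187 ± 23.0 against 581 ± 11.1 CPM, SD, n = 3), and the log2 fold change was -1.03 (standard error 0.0236, edgeR with Benjamini-Hochberg adjustment, adjusted p = 9.36e-36). As many as 4.28% of tested genes were as low or lower.

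The counts of Hmga1 carry a limit of their own. Of the 51-base windows in its exons, the length of the reads, 54.6% also occur in other genes, mainly in its near-copy Hmga1b on chromosome 11, and only uniquely mapped reads were counted, so such windows add little to either row. Hmga1b had 414.3, 401 and 399.3 CPM in WT EBs, compared with 189, 195.3 and 195.3 CPM in Tnfaip2-/- EBs. The copy was thus also lower in all Tnfaip2-/- samples, with a log2 fold change of -1.07 (edgeR with Benjamini-Hochberg adjustment, adjusted p = 1.62e-34), close to that of Hmga1. The direction is the same for both rows, while the level of each is uncertain. The other genes are affected less, with at most 4.70% of windows shared except in Igf2bp3 (18.1%, with Malsu1).

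Hmga2 (ENSMUSG00000056758, chr10:120361275-120476469, minus strand) was the least abundant of the 8 genes and showed the largest change. It had 26.52, 25.5 and 25.28 CPM in WT EBs, compared with 8.76, 10.1 and 9.97 CPM in Tnfaip2-/- EBs, from 571 to 601 and 199 to 222 counts. All WT samples lay above 25 CPM and all Tnfaip2-/- samples near 10 CPM, without overlap. From 25.8 ± 0.660 to 9.62 ± 0.751 CPM (SD, n = 3), the level was 2.68-fold lower, a log2 fold change of -1.42 (standard error 0.0678, edgeR with Benjamini-Hochberg adjustment, adjusted p = 2.72e-23). A change as low or lower was found for 2.35% of tested genes. Per kb of exon, Hmga1 exceeded Hmga2 by far, at 559 against 3.81 CPM in WT EBs and 273 against 1.42 CPM in Tnfaip2-/- EBs. Hmga2 thus contributed 0.676% and 0.517% of the sum. The full exon length of Hmga1 was used, although 54.6% of its windows are shared. Its level per kb can therefore be too low and these shares too high. The log2 ratio of Hmga1 to Hmga2 counts was 5.51, 5.54 and 5.52 in WT and 6.02, 5.86 and 5.87 in Tnfaip2-/- EBs. Again the genotypes do not overlap, and the mean difference of 0.39 reached the smallest exact permutation p of 0.1.

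**Figure D3:**
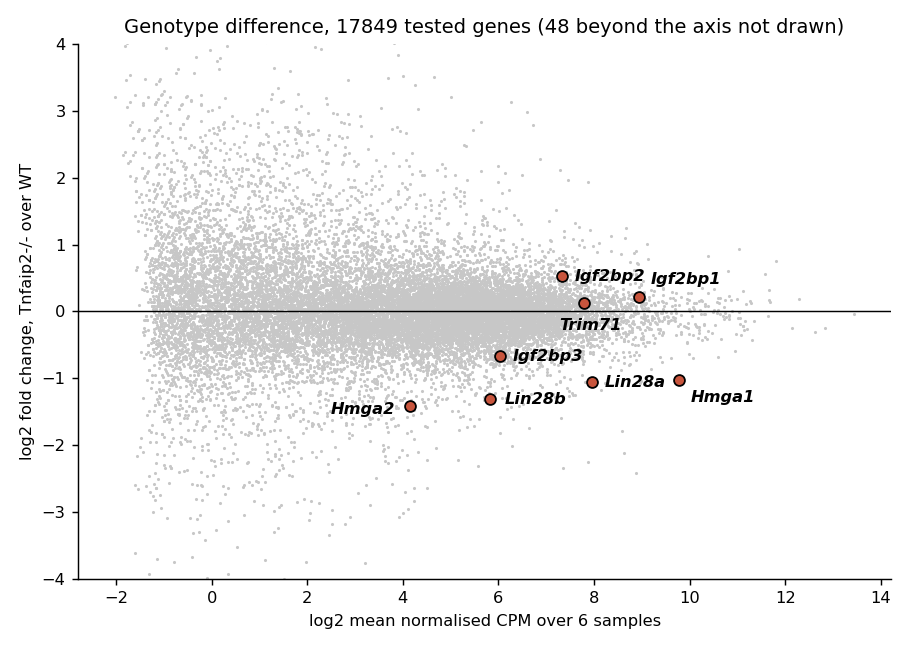
Log2 fold change (Tnfaip2-/- over WT EBs) against mean expression (log2 CPM over 6 samples) for the tested genes (grey), with the 8 genes in red and bars of 1 standard error, mostly hidden by the points. Lin28a, Lin28b, Hmga1 and Hmga2 lie between -1.03 and -1.42, below most genes of like abundance, and Trim71 lies close to 0.

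TRIM71 (LIN41) is a ubiquitin ligase and RNA-binding protein that represses mRNAs in stem cells, and its worm ortholog lin-41 was among the first let-7 targets described. Trim71 (ENSMUSG00000079259, chr9:114507133-114564369, minus strand) had 210, 213.9 and 213.1 CPM in WT EBs, compared with 235.2, 226.9 and 233.6 CPM in Tnfaip2-/- EBs. Every Tnfaip2-/- sample was slightly above every WT sample. At 212 ± 2.05 and 232 ± 4.37 CPM (SD, n = 3), the rise was 1.09-fold, a log2 fold change of 0.13 (standard error 0.0266, edgeR with Benjamini-Hochberg adjustment, adjusted p = 4.6e-05). Of all tested genes, 38.3% had a log2 fold change as high or higher, and Trim71 did not pass the test against a fold change of 1.5. Trim71, the gene with the most matches followed by A, moved in the other direction from Lin28a, Lin28b and the Hmga genes. Any part of let-7 in this was not tested.

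The IGF2BP proteins (IMP1 to IMP3) bind, stabilise and transport mRNAs such as those of Igf2, Actb and H19 during fetal growth. The 3 genes of the family did not move together. Igf2bp1 (ENSMUSG00000013415, chr11:95957163-96005940, minus strand) had 461.1, 458 and 453.5 CPM in WT EBs, compared with 530.6, 522.9 and 543.5 CPM in Tnfaip2-/- EBs. The Tnfaip2-/- samples were the higher ones, by 1.16-fold on average (457.5 ± 3.86 against 532 ± 10.4 CPM, SD, n = 3; log2 fold change 0.22, standard error 0.024, edgeR with Benjamini-Hochberg adjustment, adjusted p = 4.99e-11). Such a rise or a larger one was seen for 30.8% of tested genes.

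Igf2bp2 (ENSMUSG00000033581, chr16:22059009-22163299, minus strand), the member that stays expressed in many adult tissues, rose more. Its values were 130.1, 134.1 and 131 CPM in WT EBs, compared with 193.1, 186 and 193.7 CPM in Tnfaip2-/- EBs. All Tnfaip2-/- samples were above all WT samples by a gap of over 50 CPM. The mean rose 1.45-fold, from 132 ± 2.08 to 191 ± 4.31 CPM (SD, n = 3). The log2 fold change was 0.54 (standard error 0.0288, edgeR with Benjamini-Hochberg adjustment, adjusted p = 2.52e-21), and 15.6% of tested genes were as high or higher.

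Igf2bp3 (ENSMUSG00000029814, chr6:49085223-49214957, minus strand), the member most confined to the embryo and to tumours, moved the other way. It had 79.38, 80.07 and 80.7 CPM in WT EBs, compared with 50.7, 47.3 and 53.61 CPM in Tnfaip2-/- EBs. The WT values were almost equal, and the more variable Tnfaip2-/- values were all lower. The level was 1.58-fold lower (80.1 ± 0.661 against 50.5 ± 3.16 CPM, SD, n = 3), and its log2 fold change was -0.66 (standard error 0.0397, edgeR with Benjamini-Hochberg adjustment, adjusted p = 1.32e-19). Among all tested genes, 9.13% were as low or lower. Against a fold change of 1.5 its adjusted p in edgeR was 0.0463 (Benjamini-Hochberg), just under the threshold. The library kit does not keep the strand, and 18.7% of the exon bases of Igf2bp3 overlap Malsu1 on the opposite strand. Malsu1 itself had 23.1 ± 1.18 CPM in WT and 22.1 ± 0.694 CPM in Tnfaip2-/- EBs, with overlapping samples (log2 fold change -0.06, adjusted p = 0.348 in edgeR, Benjamini-Hochberg).

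The makeup of the Igf2bp family therefore shifted while its leading gene kept its share. Per kb of exon, Igf2bp1 made up 63.1% ± 0.377 of the family in WT EBs and 63.2% ± 0.342 in Tnfaip2-/- EBs (SD, n = 3), a difference smaller than the spread. The share of Igf2bp2 was 23.8% ± 0.308 in WT and 29.7% ± 0.262 in Tnfaip2-/- EBs. Igf2bp3 went from 13.1% ± 0.163 to 7.12% ± 0.284. The sum of the family per kb was 74.9 ± 0.411 CPM in WT EBs and 87.0 ± 1.98 CPM in Tnfaip2-/- EBs, higher in each Tnfaip2-/- sample, unlike the Lin28 and Hmga sums. The log2 ratio of Igf2bp2 to Igf2bp3 counts was 0.71, 0.74 and 0.70 in WT EBs and 1.93, 1.98 and 1.85 in Tnfaip2-/- EBs, the widest shift of the 5 ratios at 1.20. The ratio of Igf2bp1 to Igf2bp3 differed by 0.88 and that of Igf2bp1 to Igf2bp2 by -0.32 (log2, Tnfaip2-/- minus WT). None of these ratios overlapped between genotypes, and each gave an exact permutation p of 0.1, the smallest possible.

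**Figure D4:**
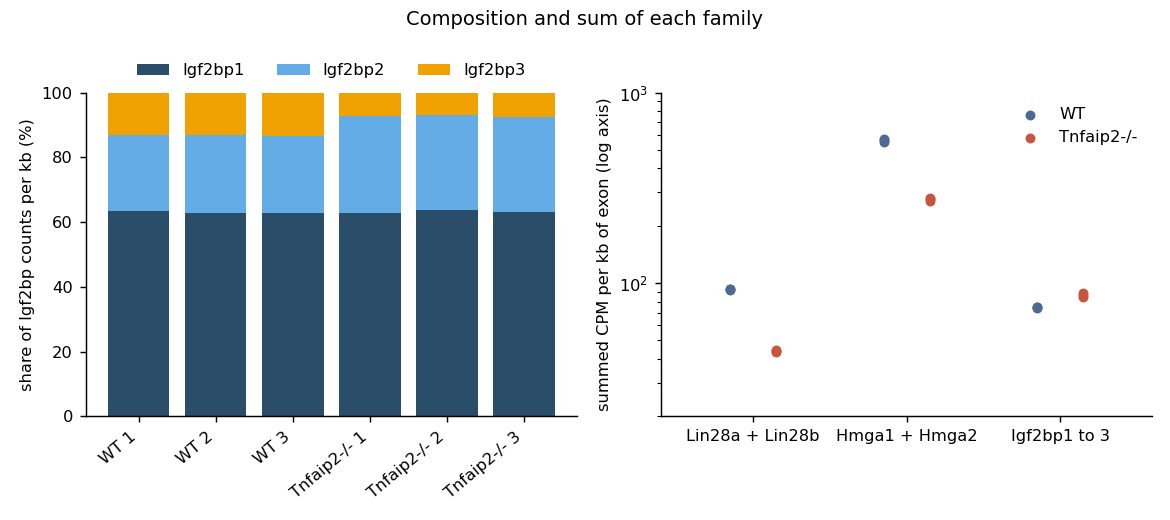
Left, share of each Igf2bp gene in the family per sample (percent of CPM per kb of exon); right, summed CPM per kb of exon of the Lin28, Hmga and Igf2bp genes per sample (log axis). The share of Igf2bp3 is near 13.1% in WT and near 7.12% in Tnfaip2-/- EBs, and the Lin28 and Hmga sums are lower in Tnfaip2-/- EBs while the Igf2bp sum is higher.

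Levels of the 8 genes can be ranked only per length. In WT EBs the order per kb of exon was Hmga1, Lin28a (84.0 CPM), Igf2bp1 (47.3), Trim71 (22.8), Igf2bp2 (17.8), Igf2bp3 (9.81), Lin28b (8.91) and Hmga2. In Tnfaip2-/- EBs, Igf2bp1 (55.0 CPM) stood above Lin28a (40.4), and Igf2bp2 (25.8) stood just above Trim71 (24.9). In these samples Igf2bp3 (6.19 CPM), Lin28b (3.59) and Hmga2 kept the last places. Hmga2 and Lin28b, the least abundant per length, were also those with the largest fold changes. The genes lie on 7 chromosomes, with Lin28b and Hmga2 both on chromosome 10, where the median log2 fold change of the 851 tested genes was -0.18, and Hmga1 on chromosome 17, where it was -0.25 over 791 genes. The other chromosomes had medians between -0.01 and 0.12.

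Lower and higher genes both held let-7 matches. The 5 lower genes held 12 matches, from 1 to 4 per gene, and the 3 higher genes held 9, also from 1 to 4 per gene. Matches followed by A numbered 5 in the lower and 8 in the higher genes. Igf2bp1 (6337 bases) and Trim71 (5512 bases), both higher, have the longest 3′ UTRs of the 8 genes. For comparison, 13684 tested genes have an annotated 3′ UTR, and 1445 of them (10.6%) held at least 1 match to the seed. Of these, 37.4% were higher and 38.4% lower, and the median log2 fold change was -0.006. Among the 12239 genes without a match, 38.4% were higher and 35.7% lower, with a median of 0.021. For the 175 genes with 2 or more matches the shares were 36.0% and 41.7%, and the median was -0.041. The differences between these medians are small, their 3′ UTRs differ in length (a median of 1038 bases without a match and 3645 bases with 2 or more), and no test was run. With matches followed by A in place of any match, the median of genes with 2 or more was 0.114, the opposite sign, over 28 genes. Only 11 tested genes had 4 or more matches, and 4 of them are Lin28b, Trim71, Hmga2 and Igf2bp1.

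Mature let-7 is too short to be measured in libraries of this kind. Its precursor rows gave almost no signal, while 2 protein-coding genes that hold let-7 genes were well expressed. Of 21 listed let-7 and miR-125 genes and hosts, 19 were matched and 3 were expressed well enough to test. Huwe1, the host of miR-98 and let-7f-2, had 494 ± 15.2 CPM in WT and 526 ± 5.25 CPM in Tnfaip2-/- EBs (SD, n = 3). The log2 fold change was 0.09 (edgeR with Benjamini-Hochberg adjustment, adjusted p = 0.00123). Wdr82, which overlaps let-7g, fell from 188 ± 3.29 to 148 ± 2.04 CPM, by a log2 fold change of -0.34 (adjusted p = 1.04e-14 in the same edgeR test). The third tested row, A730017L22Rik, was listed as a let-7b host but lies on chromosome 2, while Mirlet7b lies on chromosome 15, so its values are not used. The rows of the let-7 genes themselves had 0 counts in all samples, except for 1 count of Mirlet7g in a Tnfaip2-/- sample. Mir99ahg, the host of let-7c-1, had 0, 1 and 6 counts in WT EBs and 1, 1 and 0 in Tnfaip2-/- EBs, too few for a comparison.

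The machinery that makes and destroys let-7 was expressed throughout, and its genes moved in both directions. Of 22 tested genes for processing and decay, 6 were higher, 11 lower and 5 did not pass, with a median log2 fold change of -0.09, against 0.003 for all tested genes. These counts and those of the lists below stand beside 34.0% higher and 33.7% lower among all tested genes. Ago4 (1.07), Trim25 (0.76) and Xrn2 (0.59) rose most, and Ran (-0.63), Ago1 (-0.60) and Prkra (-0.52) fell most on the log2 scale (edgeR, adjusted p from 1.49e-06 to 9.46e-28, Benjamini-Hochberg). Ago4 was low, with 1.40 ± 0.437 CPM in WT and 2.95 ± 0.116 CPM in Tnfaip2-/- EBs (SD, n = 3). Trim25, an RNA-binding cofactor of the uridylation of pre-let-7, went from 75.04 ± 1.78 to 127 ± 1.66 CPM (SD, n = 3). Ran carries microRNA precursors out of the nucleus together with exportin-5, and Ago1 holds mature microRNAs on their targets.

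The enzymes that act directly with LIN28 were singled out for their role after their values had been seen. TUT4 adds the uridine tail to pre-let-7 that LIN28A has bound, and Tut4 rose from 73.1 ± 1.58 to 95.7 ± 3.34 CPM (SD, n = 3; log2 fold change 0.39, edgeR with Benjamini-Hochberg adjustment, adjusted p = 1.64e-13). Its relative Tut7 had 21.97 ± 0.922 and 20.8 ± 1.30 CPM and did not pass (log2 fold change -0.08, edgeR adjusted p = 0.26). Dis3l2, the nuclease that degrades the tailed precursor, was at 38.7 ± 1.99 and 35.9 ± 1.33 CPM. Its log2 fold change of -0.11 passed narrowly (edgeR with Benjamini-Hochberg adjustment, adjusted p = 0.0379) and was lost with DESeq2, with a stricter expression filter, and when WT replicate 1 or Tnfaip2-/- replicate 1 or 3 was left out. Of the enzymes that cut let-7 from its precursors, Drosha had a log2 fold change of -0.00 (edgeR adjusted p = 0.911), its partner Dgcr8 rose by 0.41 (adjusted p = 4.57e-14) and Dicer1 fell by 0.29 (adjusted p = 7.22e-11, edgeR with Benjamini-Hochberg adjustment).

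Among 28 tested genes of 30 listed as other let-7 targets, 3 were higher, 20 lower and 5 did not pass, with a median log2 fold change of -0.16. The D-type cyclin Ccnd2 fell most, from 28.4 ± 0.583 to 3.51 ± 0.325 CPM (SD, n = 3). The log2 fold change was -3.01 (edgeR with Benjamini-Hochberg adjustment, adjusted p = 9.38e-33). Igdcc3, an immunoglobulin-like surface protein, and Cdk6, a kinase of the G1 phase, followed with log2 fold changes of -1.58 and -1.45. Myc (-1.29) is counted in this list and among the transcription factors below. The genes that rose were Arid3a (0.92), Plagl2 (0.42) and Fignl2 (0.21). Acvr1c and Fas were below the filter. Many of the listed genes also act in the cell cycle.

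The 6 mRNAs listed as TRIM71 targets all passed the test, 2 as higher and 4 as lower (median log2 fold change -0.37). The cell cycle inhibitor Cdkn1a (p21) rose from 39.0 ± 1.56 to 74.3 ± 1.77 CPM (SD, n = 3). The log2 fold change was 0.93 (edgeR with Benjamini-Hochberg adjustment, adjusted p = 1.13e-24). Rbl2, a relative of the retinoblastoma gene, rose by a log2 fold change of 0.89. The transcription factor Egr1 (-0.67), the repressor E2f7 (-0.43) and the splicing factor Mbnl1 (-0.40) were lower. Trim71 itself changed by 0.13 in the same samples.

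Genes for IGF2BP cargo and the IGF axis were also mixed, with 8 higher, 4 lower and 6 not passing of 18 tested (median log2 fold change 0.07). The fetal growth factor Igf2, whose mRNA gave the family its name, fell from 25.1 ± 0.877 to 9.82 ± 0.649 CPM (SD, n = 3). The log2 fold change was -1.35 (edgeR with Benjamini-Hochberg adjustment, adjusted p = 1.71e-22). H19, the noncoding neighbour of Igf2 and another cargo, rose from a low level of 0.733 ± 0.294 to 2.79 ± 0.599 CPM, a log2 fold change of 1.93 (edgeR with Benjamini-Hochberg adjustment, adjusted p = 3.11e-10). The neighbours thus moved in opposite directions. Actb, a cargo of IGF2BP1, fell by a log2 fold change of -0.60, and the receptor adaptor Irs1 by -1.55, from a low level (1.77 to 0.598 CPM). The binding proteins Igfbp5 (1.12) and Igfbp3 (0.88) rose.

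**Figure D5:**
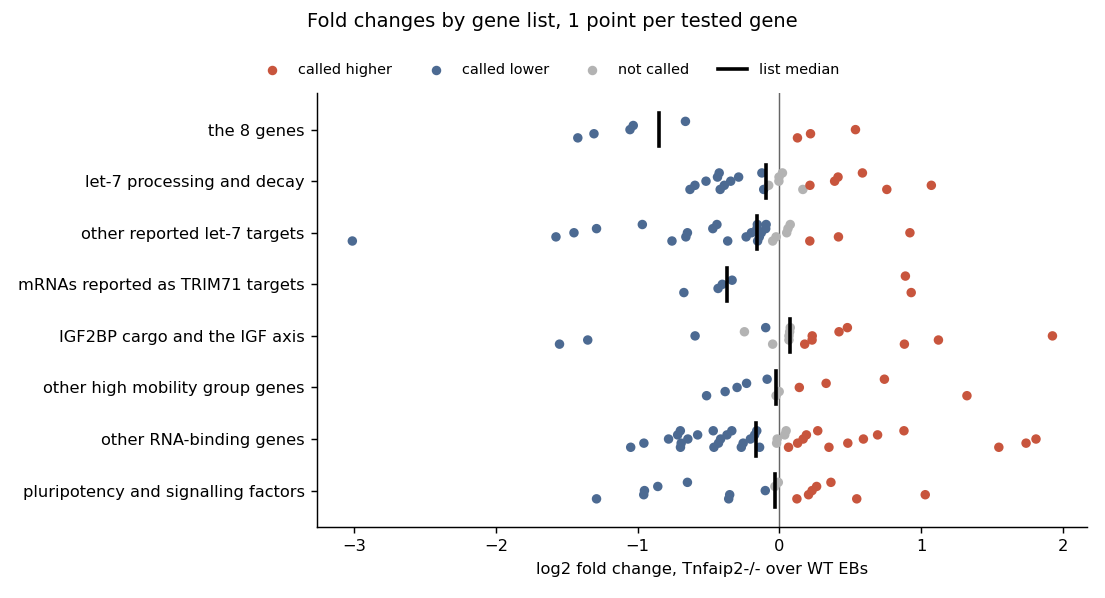
Log2 fold change (Tnfaip2-/- over WT EBs) of the 8 genes and the tested genes of 7 lists (the host transcripts and the marker lists are not drawn), with genes higher (red), lower (blue) or not passing (grey) at an adjusted p of 0.05, and the list median as a black bar. Every row drawn holds genes of both directions, and Ccnd2 at -3.01 is the lowest point drawn.

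Other high mobility group genes moved in both directions. Of 11 tested, 4 were higher, 5 lower and 2 did not pass, with a median log2 fold change of -0.02. Hmgn3 (1.32), Hmgb3 (0.74) and Hmgn5 (0.33) rose, and Hmgb1 (-0.51), Hmgxb4 (-0.38) and Hmgn2 (-0.30) fell. Hmgb3, a chromatin protein of stem and progenitor cells, went from 86.5 ± 2.91 to 144.5 ± 2.26 CPM (SD, n = 3).

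Of 38 other RNA-binding genes of stem and germ cells, 13 were higher, 21 lower and 4 did not pass (median log2 fold change -0.17). The 3 that rose most were the germ cell genes Nanos3 (1.81) and Dazl (1.74) and the epithelial splicing factor Esrp1 (1.55). Dazl went from 9.40 ± 0.559 to 31.4 ± 1.73 CPM and Esrp1 from 14.9 ± 0.862 to 43.7 ± 1.76 CPM (SD, n = 3). Nanos3 was low, at 1.45 ± 0.553 CPM in WT and 5.08 ± 0.441 CPM in Tnfaip2-/- EBs. The neural stem cell gene Msi1 fell by a log2 fold change of -1.05, the mRNA decay factor Zfp36l2 by -0.96 and the neural splicing factor Ptbp2 by -0.78. Among 17 pluripotency and signalling transcription factors, 7 were higher, 8 lower and 2 did not pass (median -0.03), with Prdm14 (1.03), Smad3 (0.55) and Smad2 (0.36) highest and Myc (-1.29), Lef1 (-0.96) and Zic2 (-0.95) lowest.

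The cell states marked by other genes differed as well. The 10 mesendoderm markers were called lower, Tbx6 only narrowly and with overlapping samples (edgeR with Benjamini-Hochberg adjustment, adjusted p = 0.0368), and 9 were with DESeq2 and in 4 of the 6 fits that left out a sample. Their summed level was 99.9, 100.8 and 98.8 CPM in WT EBs, compared with 24.03, 21.23 and 25.03 CPM in Tnfaip2-/- EBs. T (Brachyury) fell from 34.6 ± 2.12 to 0.134 ± 0.0875 CPM (SD, n = 3) and was left with 5, 3 and 1 counts in the Tnfaip2-/- samples. Fgf8 fell from 14.5 ± 0.750 to 0.553 ± 0.0603 CPM and Lhx1 from 2.595 ± 0.338 to 0.135 ± 0.0776 CPM. Of 7 formative or primed markers, 6 were lower and 1 did not pass, and their sum was 1613, 1622 and 1596 CPM in WT EBs, compared with 639.4, 630.6 and 638.6 CPM in Tnfaip2-/- EBs. Dnmt3a fell by a log2 fold change of -2.12, Dnmt3b by -1.79 and Sox3 by -1.58. The naive pluripotency markers were split, with 6 higher and 6 lower of 12, and summed to 1208, 1205 and 1206 CPM in WT and 1442, 1447 and 1459 CPM in Tnfaip2-/- EBs. Dppa3 (2.67), Prdm14 (1.03) and Klf2 (0.98) rose most, and Nr0b1 (-1.72), Klf4 (-1.49) and Tbx3 (-1.45) fell most on the log2 scale.

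The general pluripotency markers had 2 higher, 4 lower and 1 not passing of 7, and a sum from 2161 to 2187 CPM in WT and from 1753 to 1794 CPM in Tnfaip2-/- EBs. Besides Sox2 and Pou5f1, Dppa2 (0.17) rose and Sall4 (-0.35) and Tdgf1 (-0.17) fell (log2 fold changes). Of the neural markers 5 could be tested, 1 higher (Tubb3, log2 fold change 0.37) and 4 lower (Sox1 by a log2 fold change of -1.62, Pax6 by -0.82, and Zic1 from 4.55 to 0.0594 CPM among them). Zic1 was left with 2, 0 and 2 counts in the Tnfaip2-/- samples, so its lower level is not exact. Neurog2 and Hes5 were below the filter. Primitive and visceral endoderm markers were mixed (2 higher, 5 lower and 3 not passing of 10) and summed to between 88.0 and 90.5 CPM in WT and between 75.8 and 77.6 CPM in Tnfaip2-/- EBs. Sox7 (0.64) and Sox17 (0.445, lost with DESeq2) were higher (log2 fold changes). Among the genes averaging 1 CPM or more, Ttr (-1.95), Amn (-0.51) and Pdgfra (-0.49) fell most. Afp, below that level, fell further (log2 fold change -4.17, edgeR with Benjamini-Hochberg adjustment, adjusted p = 1.77e-09). Its counts were 21, 16 and 25 in WT EBs and 1, 0 and 2 in Tnfaip2-/- EBs. The trophoblast list had 7 testable genes of 10, 4 higher and 2 lower, and its sum rose from between 54.6 and 58.7 CPM to between 204 and 207.8 CPM, almost all of it from Tfap2c (21.7 to 171 CPM), a gene that germ cells and naive ES cells also express. Ascl2 (log2 fold change 1.545), Hand1 (1.75) and Krt7 (1.26) also rose, each from below 2 CPM in WT EBs (edgeR with Benjamini-Hochberg adjustment, adjusted p = 9.45e-13, 4.42e-06 and 3.95e-05). Elf5 and Gata3 stayed below the filter, and Tpbpa had 0 counts in all samples. Cdx2 fell from 1.57 to 0.0451 CPM, with 1, 2 and 0 counts left in Tnfaip2-/- EBs. Its log2 fold change was -4.96 (edgeR with Benjamini-Hochberg adjustment, adjusted p = 3.54e-13). Krt8 was lower by a log2 fold change of -0.19, a call lost with DESeq2 and without Tnfaip2-/- replicate 1. Fibroblast markers had 5 testable genes of 8, 1 higher, 2 lower and 2 not passing, and were low, with sums from 12.8 to 13.8 CPM in WT and from 11.4 to 11.9 CPM in Tnfaip2-/- EBs. Pdgfrb was higher (log2 fold change 0.36, lost with DESeq2) and Col1a2 lower (-1.50). The part of these cell states in the changes of the 8 genes was not tested.

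The genes whose pattern over the 6 samples was most like that of Lin28a were found by the root mean square difference of centred log2 CPM among 10118 genes averaging 10 CPM or more. They were the threonine dehydrogenase gene Tdh (0.021), the cytoskeletal gene Map1b (0.027) and the cyclin-dependent kinase gene Cdk4 (0.029), at 201, 212 and 678 CPM in WT and 94.2, 102 and 324 CPM in Tnfaip2-/- EBs. Closest to Hmga2, the gene with the largest change, were the membrane metalloprotease gene Mmp14 (0.016), Zfp608 (0.031) and the Wnt antagonist gene Sfrp2 (0.051). Samples within a genotype differed little, so the search mostly found genes of like fold change and does not show co-regulation. The log2 fold changes were -1.09, -1.05 and -1.07 beside -1.05 for Lin28a, and -1.40, -1.44 and -1.33 beside -1.42 for Hmga2.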

How the data were processed

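The authors mapped single-end reads of 51 bases from libraries made without strand information to GRCm38 and deposited raw counts of uniquely mapped reads per Ensembl gene for the 6 samples (per the submitters' processing notes with TopHat2 2.1.0 and featureCounts 1.5.0). Here, the deposited counts were analysed with edgeR 4.0.16 in R 4.3.3. Genes were kept by edgeR's expression filter at its standard settings (minimum count 10), libraries were scaled by TMM, and genotype was tested with the quasi-likelihood F-test, two-sided, with Benjamini-Hochberg adjustment over all tested genes and a threshold of 0.05. Approximate standard errors were obtained as |log2 fold change| over the root of the F value. The procedure was tested on simulated data.

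Gene symbols came from GENCODE M21 (GRCm38), which matched 52403 of the 52636 Ensembl identifiers, and gave exon lengths, positions and 3′ UTRs. The authors counted on an earlier Ensembl release of the same assembly, so transcripts can differ in detail. MicroRNA sequences came from RefSeq. Ratios within families were compared on counts plus 0.5 by exact permutation. From each gene list, up to 3 passing genes with the largest rise and up to 3 with the largest fall were named, among genes averaging 1 CPM or more, and other genes were named for their role after their values had been seen. The 8 genes and the lists were chosen with earlier results of these data known. A listed neural marker is not reported here.

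Alternatives were DESeq2 1.42.0, its size factors in edgeR, no filter, a stricter filter of 5 CPM in 3 samples, the legacy quasi-likelihood form, a test for changes beyond 1.5-fold, the replicate number as a block, each sample left out in turn, a pseudocount of 2 for ratios, and let-7 matches followed by A. Counts of 3 or fewer are treated as the floor, which covers counting error only.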

Additional observations from a re-analysis of the deposited data

How the results depend on the processing

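All 8 genes passed the test in the same direction in every alternative except the test against a fold change of 1.5. Under that test 2798 genes passed in place of 12084, and 5 of the 8 genes did, while Trim71 (0.127), Igf2bp1 (0.219) and Igf2bp2 (0.536, log2) did not. DESeq2 gave 10261 genes, and the stricter filter, with fewer genes tested, gave 9303. Leaving out each sample in turn gave 11537 to 11744 genes and log2 fold changes from -1.069 to -1.053 for Lin28a, -1.343 to -1.280 for Lin28b, -1.460 to -1.360 for Hmga2 and 0.110 to 0.143 for Trim71. Same-numbered samples correlated at -0.168, -0.161 and -0.136 after removal of group means, and differently numbered samples at 0.0232 to 0.151. Removing means of 3 samples ties these values together, so they do not settle whether the replicate numbers pair the samples. With the replicate block 11841 genes passed, and so did all 8.

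The median log2 fold changes by let-7 matches are near 0, and several moved by more than the SD of the group median over the Tnfaip2-/- samples. That SD was taken around the WT mean and leaves out the spread among WT samples. With the stricter filter they were 0.003 (no match), -0.023 (1 match), -0.029 (any match) and -0.001 (all genes with a 3′ UTR). With matches followed by A they were -0.034 (1 match), 0.114 (2 or more) and -0.028 (any match). The cause was not tested. Drosha, which passed in no alternative, turned to 0.007 with the stricter filter, 0.014 without WT replicate 2 and 0.016 without Tnfaip2-/- replicate 2, within a range from -0.026 to 0.016 when samples were left out. Calls for Krt8, Pdgfrb, Sox17 and Dis3l2 were lost with DESeq2. Leaving out a sample also lost Krt8 (Tnfaip2-/- replicate 1), Sox17 (WT or Tnfaip2-/- replicate 3) and Dis3l2, and changed the higher and lower counts of each list by 2 genes at most. The trophoblast median of 1.26 turned negative under the stricter filter, which removes low genes. Counts limit Tnfaip2 and the let-7 gene rows, which lie near the floor of 3 counts. The same holds for the Tnfaip2-/- values of T, Lhx1, Zic1, Afp and Cdx2.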
